A study of Homo sapiens with 12 samples.

Results

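The genes described are the core of the mTOR pathway: the mTOR kinase (MTOR) and its partners RPTOR, MLST8, AKT1S1 and DEPTOR, the TSC genes TSC1 and TSC2 with their target RHEB, and the translation repressors EIF4EBP1 and EIF4EBP2. They were taken by name. Of these 10 genes, 9 were among the 11548 genes of the expression table, and DEPTOR was not analysed here. RNA of 3 human hepatocellular carcinoma (HCC) cell lines, Hep3B, MHCC97H and Huh7, all of wild-type genotype, was sequenced with 4 treatments per line and 1 library per treatment, 12 in all. Cells were left untreated, or received AZD8055 (100 nM), an inhibitor of the mTOR kinase, compound #57, an inhibitor of the phosphatase SHP2 whose dose in the single treatment is not named in the sources used here, or the combination of 100 nM AZD8055 and 5 µM compound #57. Treatment took 24 h for MHCC97H but 48 h for the other lines, so that a difference of MHCC97H may be one of line or of exposure, and these cannot be told apart.

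mTOR joins raptor (RPTOR) and mLST8 in complex 1 (mTORC1), which senses amino acids and growth factors and drives protein synthesis and cell growth. The TSC complex keeps the small GTPase Rheb inactive, and active Rheb switches mTORC1 on at the lysosome. mTORC1 phosphorylates the 4E-binding proteins, which otherwise hold the cap-binding factor eIF4E and block the start of translation. The pathway is often active in HCC, and AZD8055 acts on the kinase itself, so the mRNA levels given here are not a measure of mTOR activity.

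The libraries held between 10659952 and 15957252 reads, and no member had fewer than 214 reads in any of them. The levels given are reads per gene for every 10000000 reads of the library. Libraries of 1 cell line correlated with each other at 0.908 to 0.985 over all genes, those of different lines at 0.512 to 0.815. All 8 hepatocyte markers examined were in the table. They were high in Hep3B and Huh7, with ALB at 119637 to 402561 and at 23891 to 76491 reads, but MHCC97H had 142 to 732 reads of ALB, at most 2 of TTR and at most 8 of APOA1, beside 595 to 1651 of the liver factor HNF4A. The endothelial marker PECAM1 reached 285 to 542 reads in MHCC97H, but CDH5, the other endothelial marker examined, was not in the table. In Huh7, the fibroblast marker COL1A2 had 630 to 1017 reads and COL1A1 92 to 889, but the fibroblast marker PDGFRA was not in the table. None of 3 blood cell markers was in the table. The part of these differences in the results was not tested.

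In cells treated with the combination, EIF4EBP1, which encodes 4E-BP1, fell 2.45-fold over the 3 cell lines, RPTOR fell 1.35-fold and MTOR fell 1.37-fold, while TSC2, an inhibitor of the pathway, rose 1.54-fold. These 4 of 9 members (44.4%) passed the test, beside 36% of all genes tested, a share near enough that the count is not a result about the members. The test was limma with the cell line as a block and Benjamini-Hochberg adjustment over all genes, called under an adjusted p of 0.05. It treats the 3 cell lines as the replicates of a treatment, with 6 residual degrees of freedom, and nothing in the labels tells of separate cultures within a line. In bulk RNA, fewer cells with a transcript and less of it per cell cannot be told apart. The median log2-fold change of the members was -0.37, beside 0.09 over all genes, and 7 members were under an unadjusted p of 0.05, as were 47.6% of all genes. No member was called without Huh7, when 11 genes of the whole table were called, and 2 were called without Hep3B. The share of all genes called without Hep3B is not given here.

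**Figure D1:**
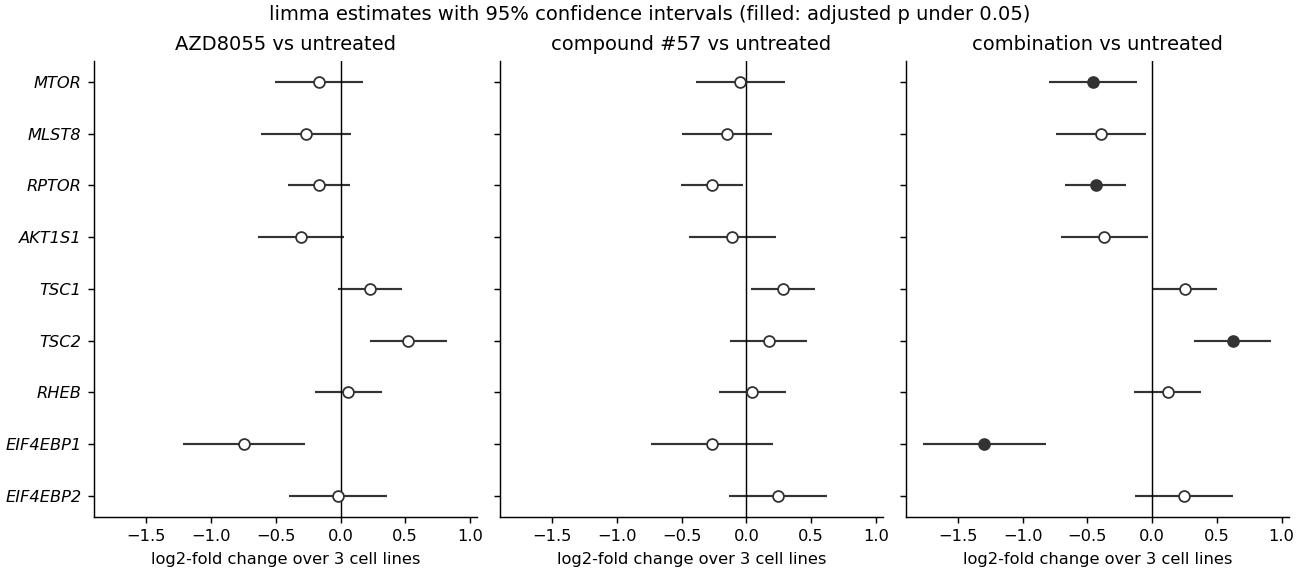
limma log2-fold change of each member over the 3 cell lines (points) with its 95% confidence interval (bars), for AZD8055, compound #57 and the combination, each against untreated cells. Filled points passed an adjusted p of 0.05: MTOR, RPTOR, TSC2 and EIF4EBP1 with the combination, and no member with either single drug. The 3 panels share the untreated libraries.

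AZD8055 alone had smaller estimates. With AZD8055, 0 of 9 members were called by limma, beside 2.96% of all genes, and 2 members (22.2%) were under an unadjusted p of 0.05, fewer in proportion than all genes (27.4%). These were EIF4EBP1, with a log2-fold change of -0.75 ± 0.21 (SE, adjusted p = 0.0702), and TSC2, with 0.52 ± 0.13 (adjusted p = 0.0578). Both estimates had the sign seen with the combination, in all 3 lines, but neither passed the adjusted test, and the 2 comparisons share the untreated libraries. With compound #57, 0 of 9 members were called by limma, beside 0.00866% of all genes, and 2 were under an unadjusted p of 0.05, a share of 22.2% beside 21.7% of all genes. These were RPTOR, at -0.27 ± 0.11 (adjusted p = 0.192), and TSC1, at 0.28 ± 0.11 (adjusted p = 0.185). The median of the members was -0.16 with AZD8055 and -0.05 with compound #57, beside 0.03 and 0.05 over all genes.

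The combination was also compared with each drug alone. Against compound #57, 1 of 9 members was called, EIF4EBP1, beside 4.18% of all genes. Against AZD8055, 0 of 9 members and 0% of all genes were called by limma. EIF4EBP1 (-0.55, 95% interval -1.02 to -0.08) and RPTOR (-0.27, -0.51 to -0.03) were the 2 members under an unadjusted p of 0.05 there, as were 14.5% of all genes. Whether the combination differed from the sum of both single drugs on the log2 scale was tested as well: 0 of 9 members and 0% of all genes were called by limma, with 0 members and 178 of all genes under an unadjusted p of 0.05. For EIF4EBP1 this difference was -0.28, with an interval from -0.95 to 0.38, and for MTOR -0.24, with an interval from -0.73 to 0.24, so that sizeable departures from the sum in either direction could not be detected with 3 lines.

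**Figure D2:**
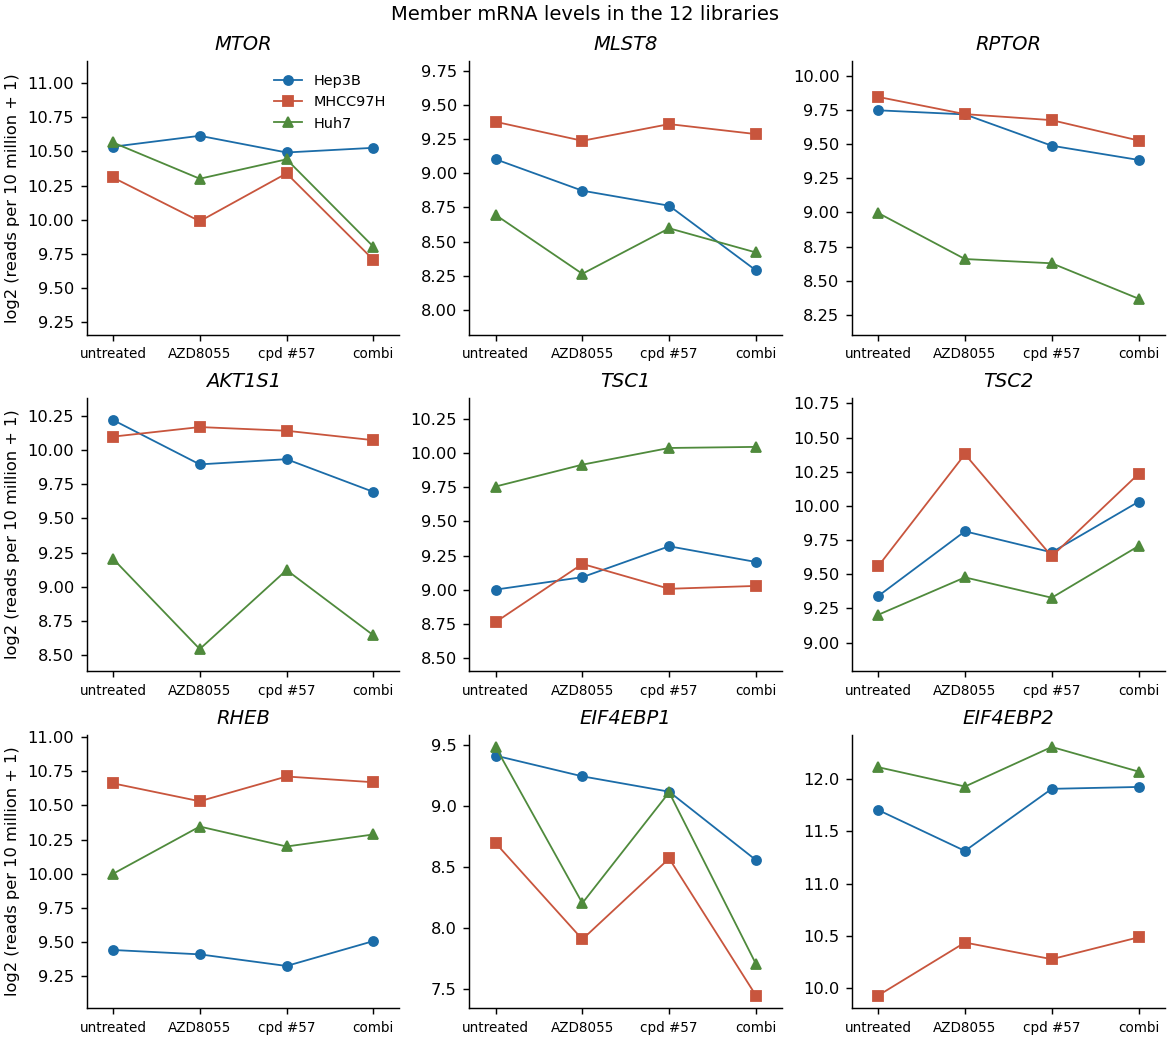
log2 of reads per 10000000 plus 1 (vertical axis) of the 9 members in each of the 12 libraries, with the 4 treatments along the horizontal axis and 1 line and symbol per cell line. Every panel spans at least 2 log2 units. EIF4EBP1 was lowest with the combination in each cell line, and EIF4EBP2 was lower in the 4 MHCC97H libraries than in the other 8.

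MTOR, the kinase that AZD8055 inhibits (ENSG00000198793, hg38 chr1:11106535-11262556, minus strand, 58 exons in its canonical transcript), had 1482 reads per 10000000 in untreated Hep3B cells, 1566 with AZD8055, 1439 with compound #57 and 1473 with the combination. In MHCC97H, the values in the same order were 1268, 1015, 1294 and 835 reads. In Huh7, they were 1514, 1260, 1390 and 892 reads. The level in Hep3B hardly moved with any treatment, while the combination library was the lowest of its line in MHCC97H and Huh7. The log2-fold change with the combination was -0.60 in MHCC97H (95% interval -0.72 to -0.49), -0.76 in Huh7 (-0.87 to -0.66) and -0.01 in Hep3B (-0.11 to 0.09). These are exact Clopper-Pearson intervals of the ratio of reads, which cover counting error only, since a condition has no second library. Over the 3 lines the change was -0.46 ± 0.15 (SE, limma adjusted p = 0.0413). The call was lost without MHCC97H (adjusted p = 0.158) and without Huh7 (adjusted p = 0.348).

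The start of MTOR is shown because the gene fell with the combination. RefSeq's promoter table on GRCh38.p14 held 6 of the members, and the 250 bases before each first listed start were searched on both strands for 5 motifs. The letters were CACGTG (E-box), TGATGNAAN (an ATF4-type element), GTAAACA (a FOXO element), CCAAT (the CCAAT box) and CCGGAAGT (an ETS core). MTOR, printed 5′ to 3′ on its own strand (minus, chr1:11262552-11262801), held 3 CCAAT boxes at -196, -75 and -34 from the start, all read as ATTGG on this strand and given in capitals.
MTOR: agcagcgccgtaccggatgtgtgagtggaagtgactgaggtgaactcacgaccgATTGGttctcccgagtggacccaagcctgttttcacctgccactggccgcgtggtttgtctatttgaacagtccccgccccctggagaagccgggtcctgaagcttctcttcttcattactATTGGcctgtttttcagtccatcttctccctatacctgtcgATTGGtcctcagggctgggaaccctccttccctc
A CCAAT box was found in 33% of the 27305 promoters and in 35.5% of those of genes in the table, so these letters are common. RHEB held 2, at -104 and -51 from its listed start. That start also lies inside the gene in the annotation, which runs to 151520120 on the minus strand. Most of the RHEB window (chr7:151519896-151520145), with both boxes, is therefore within the annotated gene. In RPTOR and EIF4EBP2, none of the 5 motifs was found in this window, which says nothing of the factors themselves. The 250 bases before the start listed for TSC1 lie wholly inside the gene in the annotation, so TSC1 was left out.

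RPTOR (ENSG00000141564, chr17:80544819-80966371), the scaffold that brings substrates to mTORC1, had 858 reads in untreated Hep3B cells, 841 with AZD8055, 717 with compound #57 and 667 with the combination. In MHCC97H, it had 919, 842, 817 and 736 reads in that order. In Huh7, the values were 509, 403, 395 and 330 reads. The combination gave the lowest level in each of the 3 lines and the untreated cells the highest. The log2-fold change with the combination was -0.36 in Hep3B (-0.50 to -0.23), -0.63 in Huh7 (-0.81 to -0.45) and -0.32 in MHCC97H (-0.45 to -0.19). limma gave -0.44 ± 0.11 (adjusted p = 0.0133), and the call was lost without Hep3B (adjusted p = 0.0708) and without Huh7 (adjusted p = 0.176).

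The other subunits did not pass the test in any treatment comparison. MLST8 (ENSG00000167965, chr16:2204248-2209453), which stabilises the kinase domain in both mTOR complexes, ranged from 307 reads in Huh7 with AZD8055 to 664 in untreated MHCC97H. Its log2-fold change with the combination was -0.81 in Hep3B and -0.27 in Huh7 (-0.46 to -0.09) and -0.09 in MHCC97H (-0.23 to 0.05), so that 1 line held most of the mean of -0.39 (limma adjusted p = 0.0731). AKT1S1 (ENSG00000204673, chr19:49869033-49878459), which encodes PRAS40, an inhibitory partner of raptor and a substrate of AKT, ranged from 372 reads in Huh7 with AZD8055 to 1191 in untreated Hep3B. With the combination it stood at -0.53 in Hep3B (-0.65 to -0.41) and -0.56 in Huh7 (-0.72 to -0.40), but at -0.03 in MHCC97H (-0.13 to 0.08), with a mean of -0.37 (limma adjusted p = 0.0786). Centring each library on its median brought both genes past the test, to -0.46 for MLST8 (adjusted p = 0.0377) and -0.44 for AKT1S1 (adjusted p = 0.0364), and AKT1S1 also passed without MHCC97H (-0.54, adjusted p = 0.0372). The largest shift of a library's median against its untreated library was 0.109 on the log2 scale, in MHCC97H with compound #57. In the annotation, exons of AKT1S1 share 151 bases with TBC1D17 on the other strand, and exons of MLST8 share 201 with BRICD5. TBC1D17 stood at 0.66 and BRICD5 at 0.31 with the combination, neither of them called, and their part in the members' values was not tested.

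Among the upstream regulators, TSC2 (ENSG00000103197, chr16:2047967-2089491), which encodes tuberin, the subunit that makes Rheb hydrolyse its GTP, had 647 reads in untreated Hep3B cells, 899 with AZD8055, 808 with compound #57 and 1045 with the combination. In MHCC97H, the values were 753, 1329, 792 and 1203 reads in the same order. In Huh7, they were 588, 711, 642 and 834 reads. Both treatments with AZD8055 lay above both treatments without it in every line, with the combination highest in Hep3B and Huh7 and AZD8055 alone highest in MHCC97H. The log2-fold change with the combination was 0.69 in Hep3B (0.56 to 0.83), 0.50 in Huh7 (0.37 to 0.63) and 0.68 in MHCC97H (0.56 to 0.79). With AZD8055 alone, TSC2 stood at 0.47 in Hep3B, 0.82 in MHCC97H and 0.27 in Huh7. limma gave 0.62 ± 0.13 for the combination (adjusted p = 0.00829), and the call was lost without Hep3B (adjusted p = 0.0697) and without Huh7 (adjusted p = 0.0835). Exons of TSC2 share 784 bases with PKD1, which lies tail to tail with it on the other strand. PKD1 rose as well, by 0.52 with AZD8055 (limma adjusted p = 0.0417) and 0.45 with the combination (adjusted p = 0.0133), and ranged from 325 reads per 10000000 in untreated Huh7 to 697 in MHCC97H with AZD8055. The libraries were strand-specific per the labels, but whether strand was used in counting is not given in the sources used here, and the part of PKD1 in the change of TSC2 was not tested.

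TSC2 was the called member that rose, and its start held 3 of the motifs. The last 118 of the 250 bases are printed on the plus strand (chr16:2047867-2047984), since the bases before them lie under an exon of the neighbouring gene NTHL1. Capitals mark an E-box at -114, which runs into an ATF4-type element at -110, and an ETS core at -17. These distances are from the listed start. The annotation starts TSC2 at 2047967, inside this window, so the ETS core lies within the annotated gene.
TSC2: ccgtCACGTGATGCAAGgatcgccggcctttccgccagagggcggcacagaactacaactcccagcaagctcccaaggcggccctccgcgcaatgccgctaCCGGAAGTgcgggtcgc
The E-box letters were in 6.49% of all promoters and in 9.22% of those of genes in the table, the ATF4-type letters in 3.18% and 1.25%, and the ETS letters in 3.64% and 7.83%. A match of letters is a description of the sequence and does not show that a factor binds there.

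TSC1 (ENSG00000165699, chr9:132891348-132946874), which encodes hamartin, the partner that stabilises tuberin, was above the untreated level in all 3 lines with each treatment, by 0.09 to 0.43 with AZD8055, 0.24 to 0.32 with compound #57 and 0.20 to 0.29 with the combination on the log2 scale. None of these passed the test (adjusted p = 0.213, 0.185 and 0.0978 in limma). Its lowest level was 433 reads in untreated MHCC97H and its highest 1055 in Huh7 with the combination. RHEB (ENSG00000106615, chr7:151466012-151520120), the GTPase that activates mTORC1, ranged from 641 to 727 reads in Hep3B, from 1479 to 1676 in MHCC97H and from 1023 to 1301 in Huh7. Its log2-fold change over the lines was between 0.04 and 0.12 for the 3 treatments, and Huh7 was the line with a value above 0 for each of them (0.35, 0.20 and 0.29 in the order AZD8055, compound #57 and combination). Per length, the ratio of TSC2 to TSC1 mRNA went from 1.7 in untreated cells to 2.38 with the combination in Hep3B, from 2.33 to 3.09 in MHCC97H and from 0.914 to 1.06 in Huh7.

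**Figure D3:**
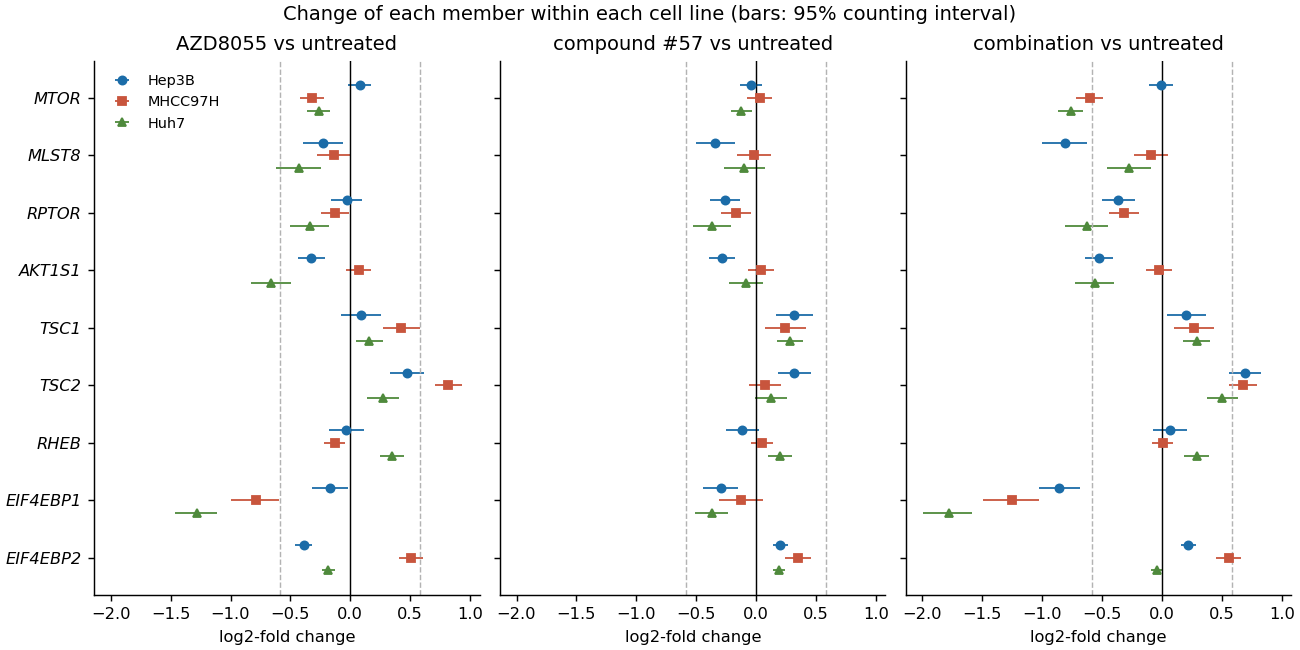
log2-fold change of each member within each cell line (points, 1 symbol per line) with the 95% counting interval of the ratio of reads (bars). Dashed lines mark a 1.5-fold change and the solid line no change. With the combination, EIF4EBP1 was past 1.5-fold lower in each line, and MTOR was past it in MHCC97H and Huh7 with Hep3B at -0.01.

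EIF4EBP1 (ENSG00000187840, chr8:38030534-38060365, 3 exons), which encodes 4E-BP1, the repressor that mTORC1 phosphorylates, had the largest fall of the members. It had 680 reads in untreated Hep3B cells, 604 with AZD8055, 554 with compound #57 and 375 with the combination. In MHCC97H, the values were 413, 239, 378 and 173 reads in the same order. In Huh7, they were 714, 293, 552 and 207 reads. The untreated library was the highest and the combination library the lowest in every line. The log2-fold change with the combination was -0.86 in Hep3B (-1.03 to -0.69), -1.78 in Huh7 (-1.99 to -1.58) and -1.25 in MHCC97H (-1.49 to -1.02). With AZD8055 alone, it was -0.17 in Hep3B (-0.32 to -0.02), -1.28 in Huh7 (-1.46 to -1.11) and -0.79 in MHCC97H (-0.99 to -0.59). Adding compound #57 to AZD8055 went with a further -0.69 in Hep3B, -0.46 in MHCC97H and -0.50 in Huh7. limma gave -1.30 ± 0.21 for the combination against untreated cells (adjusted p = 0.00342), a call that was lost without Huh7 (-1.05, adjusted p = 0.0721). Against compound #57 alone, limma gave -1.03 ± 0.21 (adjusted p = 0.0366), and this call was lost without any 1 of Hep3B (adjusted p = 0.119), MHCC97H (0.111) or Huh7 (0.402).

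EIF4EBP2 (ENSG00000148730, chr10:70404145-70428618), which encodes the close relative 4E-BP2, did not pass the test in any treatment comparison. It had 3332 reads in untreated Hep3B cells, 2542 with AZD8055, 3835 with compound #57 and 3883 with the combination. In MHCC97H, it had 975, 1386, 1241 and 1434 reads in that order. In Huh7, the values were 4426, 3892, 5059 and 4300 reads. With AZD8055 it was lower than in untreated cells in Hep3B (-0.39, -0.46 to -0.32) and Huh7 (-0.19, -0.24 to -0.13) and higher in MHCC97H (0.51, 0.40 to 0.61). With compound #57 it was higher in all 3 lines, by 0.19 to 0.35, with a mean of 0.25 (limma adjusted p = 0.412). Adding compound #57 to AZD8055 in Hep3B went with 0.61 (0.55 to 0.68). Processed pseudogenes exist for EIF4EBP1 (1), EIF4EBP2 (3) and RHEB (3), none of which is in the table, so reads shared with them cannot be told apart.

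The make-up of the 4E-BP mRNA was compared per transcript length. By this measure, EIF4EBP1 made up 64.9% of the summed 4E-BP mRNA in untreated Hep3B cells and 46.7% with the combination. In MHCC97H, the share went from 79.3% to 52.2%, and in Huh7 from 59.4% to 30.4%. With AZD8055 alone, the share was 60.9% in MHCC97H and 40.6% in Huh7, below the untreated values, but 68.3% in Hep3B. The mRNA of EIF4E, the target of both repressors, fell by 1.02 ± 0.23 on the log2 scale with the combination (limma adjusted p = 0.00988), from 948 to 1076 reads in the untreated libraries to 375 to 630. The ratio of summed 4E-BP to EIF4E mRNA was not lower with the combination than in untreated cells in any line. It was 2.86 in untreated and 3.74 in combination-treated Hep3B cells, 1.5 and 2.6 in MHCC97H, and 3.73 and 3.82 in Huh7. With AZD8055 alone it was 3.12 in Hep3B and 2.28 in MHCC97H, but 3.09 in Huh7, below the untreated value. These ratios rest on 1 library each and have no test. They use 1 transcript length per gene (827 bases for EIF4EBP1, 7491 for EIF4EBP2), and other isoforms would change them.

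**Figure D4:**
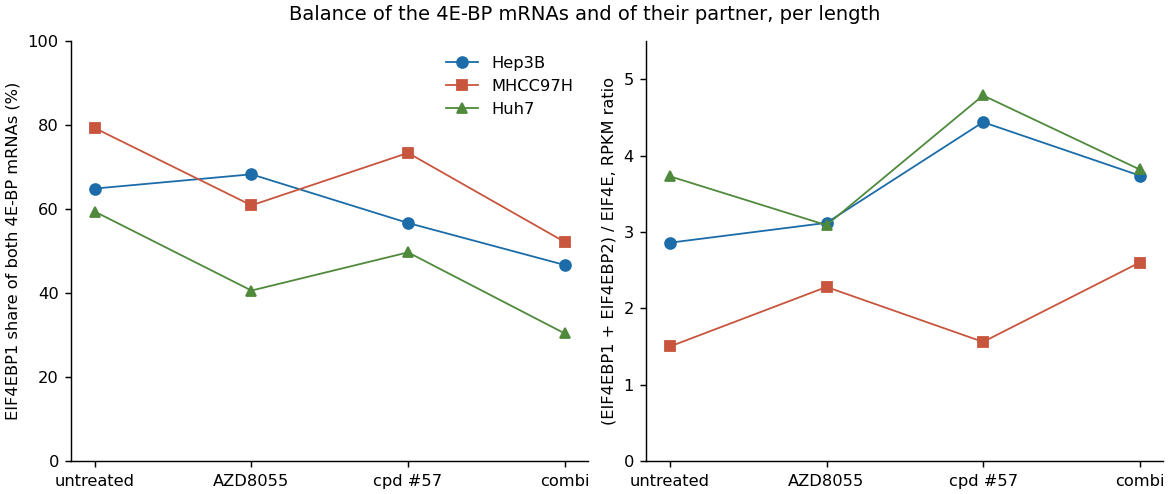
Left, share of EIF4EBP1 in the summed EIF4EBP1 and EIF4EBP2 mRNA per transcript length (percent). Right, ratio of that sum to EIF4E mRNA (RPKM, reads scaled to transcript length and library size). Each point is 1 library, with the 4 treatments along the horizontal axis and 1 symbol per cell line. The share was lowest with the combination in each line, between 30.4% and 52.2%.

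Within the lines, changes of the members past 1.5-fold were about as frequent as those of all genes or less so. With AZD8055, 0 of 9 members were past 1.5-fold in Hep3B, beside 15.1% of all genes, 2 in MHCC97H (EIF4EBP1 and TSC2), beside 28.7%, and 2 in Huh7 (EIF4EBP1 and AKT1S1), beside 24.3%. With compound #57, 0 of 9 members were past it in Hep3B, beside 30.9% of all genes, 0 in MHCC97H, beside 12.7%, and 0 in Huh7, beside 17.7%. With the combination, 3 members were past it in Hep3B (EIF4EBP1, MLST8 and TSC2), beside 38.4% of all genes, 3 in MHCC97H (EIF4EBP1, MTOR and TSC2), beside 37.4%, and 3 in Huh7 (EIF4EBP1, MTOR and RPTOR), beside 40.2%. There is 1 library per condition, so these counts have no test. EIF4EBP1 is the member that was past 1.5-fold in each line with the combination.

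Levels were also compared between genes and cell lines. The order of the levels per length differed between the lines. In Hep3B, EIF4EBP1 had the highest median over the 4 treatments (70.0 RPKM, reads scaled to transcript length and library size), followed by AKT1S1 (54.3), EIF4EBP2 (47.8), RHEB (33.6) and MLST8 (27.0). In MHCC97H, RHEB led (79.4), before AKT1S1 (62.6), MLST8 (38.3), EIF4EBP1 (37.3) and EIF4EBP2 (17.5). In Huh7, RHEB (59.3), EIF4EBP2 (58.2) and EIF4EBP1 (51.1) were above AKT1S1 (26.9) and MLST8 (21.8). MTOR, TSC2, RPTOR and TSC1 had the 4 lowest medians in each line. The ranges of the leading pair overlapped in Hep3B and in Huh7, while RHEB (72.3 to 81.9 RPKM) lay above AKT1S1 (60.6 to 64.8) in every MHCC97H library. RPKM used the length of the canonical GENCODE transcript, and other isoforms would change the order. In MHCC97H against the mean of the other lines, 9 of 9 members were called in limma, beside 71% of all genes. The 4 libraries of a line, 1 per treatment, stood as its replicates, so these p-values do not measure the spread between cultures or between lines. MHCC97H was treated for 24 h and the others for 48 h, so line and exposure cannot be told apart. EIF4EBP2 was 3.08-fold lower in MHCC97H (log2 difference -1.62 ± 0.13, adjusted p = 2e-06) and RHEB was 1.78-fold higher (0.83 ± 0.09, adjusted p = 1.3e-05). AKT1S1 (0.71), MLST8 (0.69), RPTOR (0.57) and TSC2 (0.38) were also higher there, and EIF4EBP1 (-0.70), TSC1 (-0.55) and MTOR (-0.32) lower. The MTOR difference lost its call without the untreated libraries (adjusted p = 0.0510) or the AZD8055 libraries (adjusted p = 0.125).

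Between Hep3B and Huh7, 5 of 9 members were called in limma, beside 55.1% of all genes. AKT1S1 was 2.08-fold higher in Hep3B (1.06 ± 0.13, adjusted p = 0.000106) and RPTOR 1.89-fold higher (0.92 ± 0.09, adjusted p = 3e-05). RHEB (-0.79), TSC1 (-0.78) and EIF4EBP2 (-0.39, adjusted p = 0.0437) were lower in Hep3B. The EIF4EBP2 difference was lost when any 1 treatment was left out, with adjusted p between 0.0543 and 0.11. MTOR (0.26), MLST8 (0.26), TSC2 (0.28, adjusted p = 0.0604) and EIF4EBP1 (0.46, adjusted p = 0.0569) did not pass. Libraries of 1 line under 4 treatments stood as its replicates here, which are not independent cultures of 1 condition. EIF4EBP1 passed without the untreated libraries (0.63, adjusted p = 0.0347) or without the compound #57 libraries (0.61, adjusted p = 0.0450), and MLST8 without the combination libraries (0.39, adjusted p = 0.0345).

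The members varied together to different degrees once the mean of each cell line was subtracted. Over the 12 libraries, Pearson's r was 0.89 between MTOR and EIF4EBP1, 0.83 between RPTOR and EIF4EBP1, 0.82 between MLST8 and AKT1S1 and -0.82 between TSC2 and EIF4EBP1. The genes of the table most like MTOR by this measure were NUP188, LIN52 and SETD8 (each 0.96). For RPTOR they were RABEPK (0.99), DHX37 (0.98) and PRMT1 (0.98). For TSC2 they were TK2 (0.99), MEF2D (0.97) and C1QTNF1 (0.97), and for EIF4EBP1 AGMAT, L3MBTL2 and MPV17L2 (each 0.98). These r describe 12 libraries that share treatments and lines, and have no p.

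**Figure D5:**
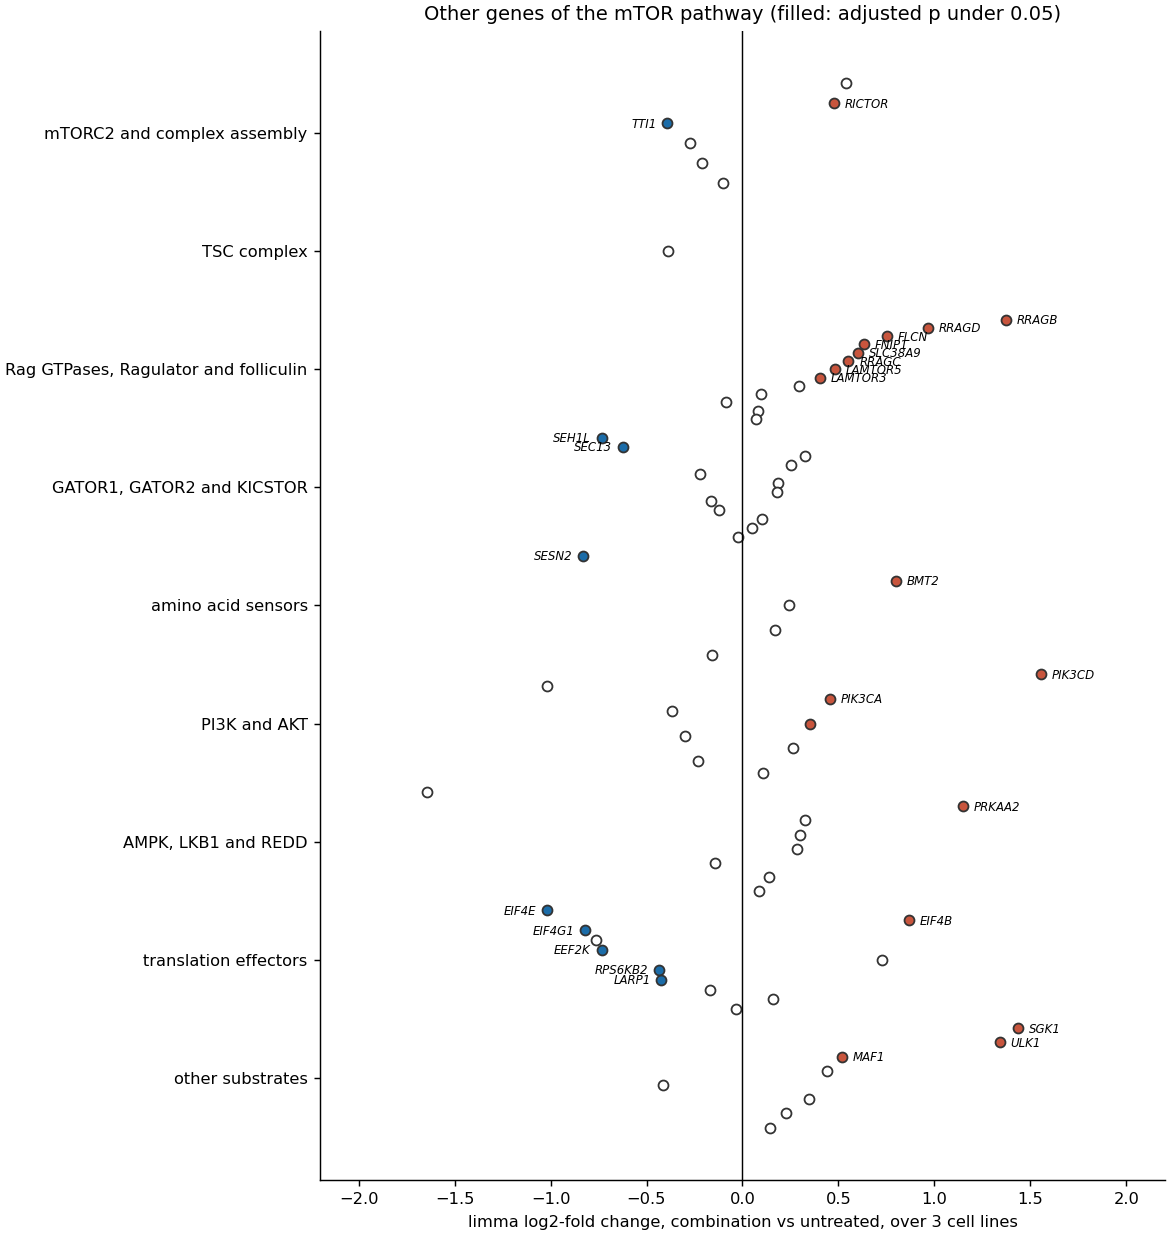
limma log2-fold change (horizontal axis) of 73 other mTOR pathway genes in the combination against untreated cells over the 3 cell lines, 1 point per gene, by role. Filled points, most of them named, passed an adjusted p of 0.05 (18 higher, red; 9 lower, blue). In the group of Rag GTPases, Ragulator and folliculin, 8 of 13 genes were called and all 8 were higher, beside 36% of all genes called in either direction.

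Of 80 other genes of the pathway, 73 were in the table. With the combination, 27 of them passed the test (37%), 18 higher and 9 lower, which is near the 36% of all genes, and their median log2-fold change was 0.14 beside 0.09 over all genes. Of 13 genes of the Rag GTPases, Ragulator and folliculin, which bring mTORC1 to the lysosome, 8 rose and 0 fell by limma. They were the Rag GTPases RRAGB (1.37), RRAGD (0.97) and RRAGC (0.55), the Rag regulators FLCN (0.75) and FNIP1 (0.63), the arginine-sensing transporter SLC38A9 (0.60) and the Ragulator subunits LAMTOR5 (0.48) and LAMTOR3 (0.40). RRAGB was 1.23 higher in Hep3B and 1.24 higher in MHCC97H on the log2 scale, but in Huh7 it had 2 reads in untreated cells and 7 with the combination, too few for a fold (95% interval -0.13 to 5.57). RRAGB is a close copy of RRAGA, and how reads that match both were counted is not given in the sources used here. Among 12 genes of GATOR1, GATOR2 and KICSTOR, 2 fell, SEH1L (-0.73) and SEC13 (-0.62), both also subunits of the nuclear pore. Of 5 amino acid sensors, the leucine sensor SESN2 fell (-0.83) and BMT2, the S-adenosylmethionine sensor, rose (0.80).

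Among 11 effectors of translation, 5 fell and 1 rose with the combination. Over all 11548 genes, 36% were called in this comparison, 2410 higher and 1744 lower. The counts by role rest on few genes and were not tested as sets, so they are not a result about a role. EIF4E (-1.02), EIF4G1 (-0.82), EEF2K (-0.73), the S6 kinase RPS6KB2 (-0.43) and LARP1 (-0.42), which binds mRNAs of the translation machinery, fell. EEF2K was lower in Hep3B (724 to 320 reads) and Huh7 (536 to 235) but not in MHCC97H (744 to 830). EIF4B, a helper of the eIF4A helicase, rose (0.87). Of 8 other substrates, the autophagy kinase ULK1 (1.34), the kinase SGK1 (1.44) and MAF1 (0.52), a repressor of RNA polymerase III, rose. SGK1 went from 411 to 1602 reads in Hep3B and from 525 to 2026 in Huh7, but from 62 to 83 in MHCC97H. Of 9 genes of PI3K and AKT, PIK3CD (1.56), with 19 to 192 reads per library, and PIK3CA (0.46) were among those that rose. Of 8 genes of AMPK, LKB1 and REDD, the AMPK subunit PRKAA2 rose (1.15). It went from 354 to 1344 reads in Hep3B and from 367 to 978 in Huh7, but from 506 to 549 in MHCC97H. DDIT4, which encodes the inhibitor REDD1, had the lowest estimate without passing the test (-1.64 ± 0.75, limma adjusted p = 0.113). DDIT4 was lower in Hep3B (914 to 78 reads) and Huh7 (212 to 34) but higher in MHCC97H (147 to 338). Of 6 genes of mTORC2 and of complex assembly, RICTOR rose (0.48, adjusted p = 0.0496) and TTI1 fell (-0.39). TBC1D7, the further subunit of the TSC complex, stood at -0.39 (adjusted p = 0.0511).

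Against AZD8055 or compound #57 alone, few pathway genes passed. With AZD8055, 1 of the 73 genes (1.37%) was called against untreated cells, beside 2.96% of all genes. This was EIF4B (0.58 ± 0.13, limma adjusted p = 0.0442). The highest estimates there were those of PRKAA2 (1.01) and ULK1 (0.83), and the lowest those of DDIT4 (-1.48) and PIK3R3 (-1.19), none of them called. With compound #57, limma called 0 of the 73, beside 0.00866% of all genes, with 18 under an unadjusted p of 0.05 (24.7%, beside 21.7% of all genes). The highest estimates were those of LPIN1 (1.19, limma adjusted p = 0.0912) and SGK1 (1.01). The lowest were those of TFEB (-0.67), with 11 to 53 reads per library in MHCC97H and Huh7, and EIF4A1 (-0.44). EIF4A1 had only 42 to 143 reads per library over all lines. For the combination against compound #57, 2.74% of the 73 genes were called, beside 4.18% of all genes. These were EIF4B (1.05, limma adjusted p = 0.0105) and RPS6 (0.55, adjusted p = 0.0454). For the combination against AZD8055, 0 of the 73 and 0% of all genes were called. There, 15 of the 73 were under an unadjusted p of 0.05 (20.5%, beside 14.5% of all genes). Without Huh7, 0 of the 73 genes were called with the combination against untreated cells, when few genes of the whole table were called. Without Hep3B, 12 of the 73 were called, and the share of all genes in that fit is not given here.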

How the data were processed

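RNA of 12 libraries was prepared by the authors from polyA+ RNA and aligned to hg38 per the labels. The aligner, read counting and normalization are not given in the sources used here. The authors deposited 1 log2 value per gene and library. All values, once 1 was taken off on the linear scale, were whole multiples of 1 step per library (tolerance 0.01 reads). Each value was thus taken for the log2 of 1 plus the gene's reads per 10000000, and 0.001 for 0 reads. Library sizes were worked out from the step. Of the 11548 genes, whose lowest mean log2 value was 4.65, 18 bore names turned into dates and 4 names stood on 2 lines.

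A log2-fold change within a cell line is a difference of 2 libraries on the log2(value + 1) scale, with a 95% Clopper-Pearson interval and no p-value. Across the lines, limma 3.58.1 (lmFit, eBayes with trend) was fitted to all genes and 12 libraries with terms for treatment and for cell line, and Benjamini-Hochberg adjusted p-values under 0.05 over all genes were called. The cell line term makes pairs of the libraries that come from 1 line. Positions and lengths came from GENCODE release 44 on hg38 and promoters from RefSeq on GRCh38.p14, by symbol. 3 pathway genes were found under older symbols. The fit and the interval were tested on simulated data.

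The members and gene lists were chosen with earlier results of these data known. All members present are named. Of the other pathway genes, those called in a treatment comparison are named, with the 2 highest and 2 lowest in each comparison with untreated cells, and for each called member the 3 genes most correlated with it. PKD1, TBC1D17 and BRICD5 are given because they overlap members. Results of some other genes are not reported here. The alternatives were 10 added instead of 1, a filter that kept the 75% of genes highest on average, libraries centred on their medians, voom on the whole reads, no cell line block, only the libraries compared, and each cell line or treatment left out. Python 3.11.15, numpy 2.4.6, pandas 2.3.3, scipy 1.17.1, matplotlib 3.10.9 and R 4.3.3 were used.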

Additional observations from a re-analysis of the deposited data

Results flagged for a closer look

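EIF4EBP2 had changes of opposite sign with AZD8055 in different cell lines. Its log2-fold change was 0.51 in MHCC97H, collected after 24 h, and -0.39 in Hep3B, collected after 48 h. With 1 library per condition the difference was not tested, and an effect of the line and one of the exposure cannot be told apart.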

How the results depend on the processing

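The counts in this section are given without the share of all genes called in the same fit, which was not the same in every fit. They are therefore not a result about the members or the pathway genes. Adding 10 in place of 1, or testing the 75% of genes with the highest mean, changed no call of a member. Centring the libraries moved the called members of the combination against untreated cells from 4 to 6, with MLST8 and AKT1S1 added. Without the cell line block, which takes the libraries of a line as pairs, 0 members were called in that comparison and 0 against compound #57, and 0 of the 73 pathway genes with AZD8055, with the combination or against compound #57. With only the libraries compared, 2 members passed with the combination, and 11 pathway genes with it, 0 with AZD8055 and 1 against compound #57, where voom called 4.

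Leaving out 1 line at a time gave 0 to 4 members with the combination, 0 against compound #57, and 0 to 20 pathway genes with the combination, 0 with AZD8055, 0 to 6 with compound #57 and 0 to 5 against compound #57. Estimates that changed sign had passed no test. Centred, RHEB with compound #57 was -0.02 and TSC1 against AZD8055 -0.01. With voom, EIF4EBP2 against compound #57 was 0.003. With 1 line left out, RHEB ranged from -0.08 to 0.16 with AZD8055 and from -0.03 to 0.12 with compound #57, and EIF4EBP2 from -0.29 to 0.16 with AZD8055 and from -0.11 to 0.11 for the combination against compound #57. Against AZD8055, the combination ranged from -0.27 to 0.10 for MLST8, from -0.15 to 0.002 for AKT1S1 and from -0.03 to 0.12 for TSC1, and against compound #57 from -0.05 to 0.01 for TSC1. The causes of these changes were not tested, beyond the fewer libraries that these fits hold. With 1 library per condition, the intervals within a line cover counting error only, and the spread between cultures was not measured.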
